A study of Homo sapiens with 6 samples.

Results

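The IL-6 family of cytokines and their gp130 receptors were examined in SW780, a human luminal bladder cancer cell line, with and without exposure to RC48. RC48 (disitamab vedotin) is an antibody directed against ERBB2 that carries the microtubule poison MMAE. The members were chosen by name: the ligands IL6, LIF, IL11 and CLCF1 and the receptor chains IL6R, IL6ST (gp130), LIFR, OSMR and IL11RA. All 9 were listed, 4 ligands and 5 receptor chains among 16390 genes. The comparison asks which ligand or receptor chain that can act on STAT3 changed its mRNA after RC48. The Control group held 3 libraries of SW780 without RC48. The RC48 group held 3 libraries of the same line exposed to 25 µg/ml, for a time that the methods do not name. Both groups came from the single line SW780, so they are no sample of bladder cancers. The libraries held between 16453233 and 17988030 counts.

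Cytokines of this family signal through gp130, a receptor chain that has no enzyme activity and works with JAK kinases bound to its tail. IL-6 and IL-11 first bind a chain of their own, IL6R or IL11RA, and then bring gp130 molecules together, while LIF and CLCF1 act through gp130 paired with LIFR, and oncostatin M through gp130 paired with OSMR. The joined receptor leads to phosphorylation of STAT3, which enters the nucleus and induces genes that include its own inhibitor SOCS3. The libraries measured mRNA, not cytokine release, surface receptor or phosphorylated STAT3.

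Promoter sequence from RefSeq (GRCh38.p14) was at hand for 7 of the 9 members. LIF and CLCF1 had none. For the ligand IL6, the receptor IL6R and gp130, the bases before the start site that hold no exon are shown 5′ to 3′, because these genes stand for the ligand with the fewest counts, the chain that fell and the shared chain. Capitals mark a match to the NF-κB consensus.
IL6 (chr7:22726950-22727146, + strand): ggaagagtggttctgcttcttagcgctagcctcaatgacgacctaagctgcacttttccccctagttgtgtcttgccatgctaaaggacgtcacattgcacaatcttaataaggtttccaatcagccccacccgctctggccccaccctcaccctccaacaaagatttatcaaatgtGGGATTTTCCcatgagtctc
IL6R (chr1:154405093-154405192, + strand): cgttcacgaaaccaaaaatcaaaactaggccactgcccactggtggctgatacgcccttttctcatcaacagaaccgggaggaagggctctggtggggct
IL6ST (chr5:55994994-55995166, - strand): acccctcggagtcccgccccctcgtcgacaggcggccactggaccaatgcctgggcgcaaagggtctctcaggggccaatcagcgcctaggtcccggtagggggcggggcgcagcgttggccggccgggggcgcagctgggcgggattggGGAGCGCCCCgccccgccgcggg

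Both strands were searched for the STAT motif TTCCNGGAA, the AP-1 motif TGACTCA, the TATA motif TATAAA and the NF-κB consensus. Over the 250 bases before the start in 35116 promoters, these were found in 0.968%, 4.203%, 10.7% and 9.96%. The IL6 and IL6ST stretches each held a match to the NF-κB consensus, and the IL6R stretch held none of the 4 motifs. Among the members not shown, IL11RA also had an NF-κB match in the 250 bases before a start site. IL11 had an AP-1 match there, LIFR had TATA matches and OSMR had none. The stretches shown are shorter than the windows behind these shares, and the IL6 stretch lies inside the bounds that GENCODE gives the gene, which start farther upstream. These matches describe the letters only.

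Of the 9 members, LIF rose and IL6R fell after RC48. LIF, a ligand of the gp130 and LIFR pair, was 2.06 times its Control level, and IL6R, the binding chain for IL-6, was 1.90 times higher in Control than after RC48. OSMR, the partner of gp130 for oncostatin M, lay above Control in every RC48 library but did not pass the test. IL6, the founding ligand, had too few counts for the test. The remaining 5 members, IL11, CLCF1, IL6ST, LIFR and IL11RA, had overlapping groups and did not pass it.

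In numbers, 8 members had enough counts (3 ligands, 5 receptor chains) and 2 of them were called at an adjusted p under 0.05 (edgeR quasi-likelihood F test, adjusted by Benjamini-Hochberg over 13055 genes). Over all genes tested, 2.21% were called, 1.98% higher and 0.23% lower. The members' median log2 fold change was 0.29 and that of all genes 0.02, with 6 of 8 members above 0. The RC48 and Control libraries did not overlap for 3 of the 8, with LIF and OSMR higher and IL6R lower. Over all genes, 31.5% did not overlap, 17.4% higher and 14.1% lower. In bulk libraries a change in every cell and a change in some cells cannot be told apart, nor can fewer cells of a kind and less RNA per cell.

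**Figure D1:**
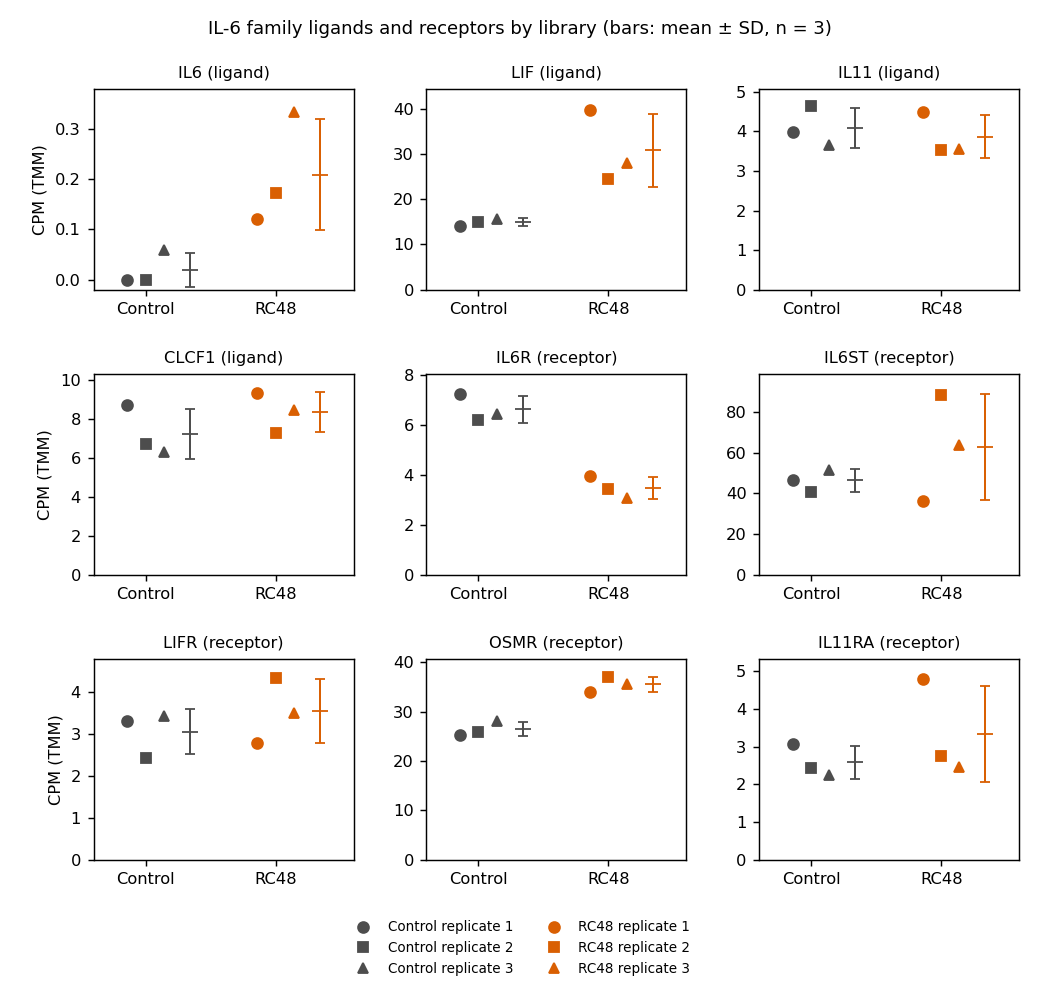
Normalised expression (CPM scaled by TMM, vertical axis of each panel) of each of the 9 members in the 3 Control and 3 RC48 libraries, with the mean and SD of each group beside the points. The RC48 points lie apart from Control for LIF and OSMR (above), for IL6R (below) and for the few counts of IL6 (above), while the groups overlap for IL11, CLCF1, IL6ST, LIFR and IL11RA.

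LIF, leukemia inhibitory factor (NCBI gene 3976, GRCh38 chr22:30240447-30246851, - strand), is a secreted ligand that binds LIFR and gp130. Its expression in the Control libraries was 14.0, 15.1 and 15.7 CPM (read counts scaled to library size by TMM, CPM), and in the RC48 libraries it was 39.8, 24.6 and 28.1 CPM. The lowest RC48 value exceeded the highest Control value, and replicate 1 was far above the other RC48 libraries. The means were 14.9 ± 0.873 and 30.8 ± 8.01 CPM (SD, n = 3 each). On the log2 scale LIF rose by 1.05 (standard error 0.20, 95% interval 0.58 to 1.51, adjusted p = 0.0429 edgeR quasi-likelihood F test, Benjamini-Hochberg adjusted). The two-sided exact permutation test gave p = 0.1, the smallest that 3 libraries against 3 allow. Leaving out a Control library ended the call (adjusted p = 0.248, 0.226 and 0.227 for replicates 1, 2 and 3 in edgeR), as did leaving out RC48 replicate 3 (0.151) and limma on log2(TPM+1) (0.0623) or log2(TPM+0.1) (0.0575), with log2 fold changes between 0.73 and 1.18 over 18 alternatives.

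IL6, interleukin 6 (NCBI gene 3569, chr7:22725884-22732002, + strand), binds IL6R before gp130. It had 0, 0 and 1 counts in the Control libraries and 2, 3 and 6 counts in the RC48 libraries. Every RC48 library held more counts than any Control library, but the 12 counts in all were under the filter of the test. The ratio of the summed counts after scaling was 10.9, with an exact 95% interval from 1.59 to 469.8 that covers counting error only. Without the filter, edgeR gave a log2 fold change of 3.02 and an adjusted p of 0.223. In the annotation, 20.7% of the exon bases of IL6 are shared with the antisense gene AC073072.1, and the sources used here do not say whether strand was used in counting.

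IL11, interleukin 11 (NCBI gene 3589, chr19:55364389-55370463, - strand), binds IL11RA before gp130. It was expressed at 3.99, 4.64 and 3.65 CPM in the Control libraries and at 4.49, 3.54 and 3.56 CPM in the RC48 libraries. The groups overlapped, and the log2 fold change was −0.08 (standard error 0.19, 95% interval −0.52 to 0.36, adjusted p = 0.782, same edgeR test). CLCF1, cardiotrophin-like cytokine factor 1 (NCBI gene 23529, chr11:67364168-67374177, - strand), is a secreted ligand that acts through LIFR and gp130. It was expressed at 8.73, 6.72 and 6.30 CPM in the Control libraries and at 9.35, 7.31 and 8.46 CPM in the RC48 libraries. Control replicate 1 lay above 2 of the RC48 libraries, and the log2 fold change was 0.21 (standard error 0.19, 95% interval −0.23 to 0.64, adjusted p = 0.483, same edgeR test). Both intervals leave room for changes in either direction.

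IL6R (NCBI gene 3570, chr1:154405193-154469450, + strand) is the chain that binds IL-6, on the cell surface or in a soluble form. Its expression was 7.23, 6.20 and 6.42 CPM in the Control libraries and 3.95, 3.43 and 3.06 CPM in the RC48 libraries. Each RC48 library lay below each Control library, and neither group spread widely. The means were 6.62 ± 0.542 and 3.48 ± 0.446 CPM (SD, n = 3 each). IL6R fell by 0.93 on the log2 scale (standard error 0.17, 95% interval −1.33 to −0.52, adjusted p = 0.0411 edgeR quasi-likelihood F test, Benjamini-Hochberg adjusted). The exact permutation test gave p = 0.1, the smallest possible. This call too was lost when a Control library was left out (adjusted p = 0.252, 0.188 and 0.185 for replicates 1, 2 and 3 in edgeR) and when RC48 replicate 3 was (0.214). It was also lost in limma on log2(TPM+0.1) (0.0703) and in edgeR with the replicate number as a block (0.0579). The log2 fold changes lay from −1.16 to −0.59 over 18 alternatives.

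OSMR (NCBI gene 9180, chr5:38845858-38945596, + strand) joins gp130 in the receptor for oncostatin M. It was expressed at 25.3, 25.9 and 28.03 CPM in the Control libraries and at 34.0, 37.0 and 35.6 CPM in the RC48 libraries. The groups did not overlap, and both were tight, at 26.4 ± 1.45 and 35.5 ± 1.498 CPM (SD, n = 3 each). The log2 fold change of 0.43 (standard error 0.12, 95% interval 0.14 to 0.71) had an adjusted p of 0.151 (edgeR quasi-likelihood F test, Benjamini-Hochberg adjusted) and was not called. DESeq2 called it (adjusted p = 0.0462), and so did edgeR without RC48 replicate 1 (0.0269). OSMR shares 3.19% of its exon bases with RICTOR on the opposite strand.

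IL6ST (NCBI gene 3572, chr5:55935095-55994993, - strand) encodes gp130, the chain through which the 4 ligands all signal. It was expressed at 46.7, 40.8 and 51.7 CPM in the Control libraries and at 36.3, 88.4 and 63.9 CPM in the RC48 libraries. RC48 replicate 1 was the lowest of the 6 libraries and RC48 replicate 2 the highest, a 2.44-fold spread within the group. The means were 46.4 ± 5.46 and 62.8 ± 26.1 CPM (SD, n = 3 each). The log2 fold change of 0.44 (standard error 0.29, 95% interval −0.24 to 1.12) was not called (adjusted p = 0.369, edgeR). Without RC48 replicate 1 it was 0.71 and called (adjusted p = 0.0093 in edgeR), and without RC48 replicate 2 it was 0.11 (0.724).

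LIFR (NCBI gene 3977, chr5:38474963-38608354, - strand) is the partner of gp130 for LIF. It was expressed at 3.30, 2.43 and 3.42 CPM in the Control libraries and at 2.79, 4.34 and 3.51 CPM in the RC48 libraries. As for IL6ST, RC48 replicate 1 was the lowest of its group and replicate 2 the highest. The log2 fold change was 0.22 (standard error 0.24, 95% interval −0.32 to 0.76, adjusted p = 0.547 in edgeR). IL11RA (NCBI gene 3590, chr9:34650702-34661892, + strand), the binding chain for IL-11, was expressed at 3.06, 2.43 and 2.24 CPM in the Control libraries and at 4.799, 2.74 and 2.45 CPM in the RC48 libraries. RC48 replicate 1 stood above the other 5 libraries, which lay close together. The log2 fold change was 0.36 (standard error 0.30, 95% interval −0.32 to 1.05, adjusted p = 0.443 in edgeR), and 7.82% of its exon bases are shared with GALT on the same strand.

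The RC48 libraries differed in how expression followed the GC content of transcripts, and this moved with several members. Across 13016 genes, the rank correlation of the log2 ratio to the Control mean with GC content was 0.742 in RC48 replicate 1, −0.013 in replicate 2 and 0.573 in replicate 3. IL6ST and LIFR have AU-rich transcripts, with 40.1% and 40.2% GC, and OSMR has 44.8%. IL11, IL11RA, CLCF1 and LIF have 62.9%, 60.4%, 59.5% and 58.8% GC, and IL6R has 56.1%. In RC48 replicate 1, IL6ST had a log2 ratio of −0.34. The tenth of genes that holds it, at the upper edge in GC, had a median of −0.95, and the group next to it in GC, which holds LIFR, −0.69. In the same library, the tenth that holds LIF had a median of 0.49 and LIF 1.39, while the tenth that holds IL6R had 0.35 and IL6R −0.67. In RC48 replicate 2, where the medians of all these gene groups lay near 0, the log2 ratios were 0.70 for LIF, −0.85 for IL6R, 0.93 for IL6ST and 0.48 for OSMR.

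**Figure D2:**
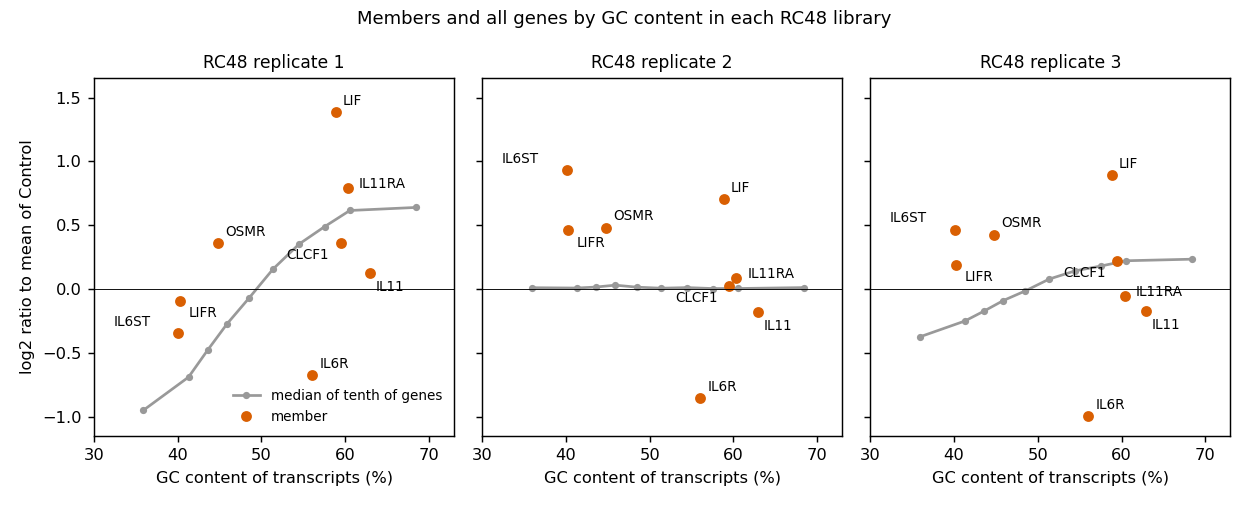
Each RC48 library set against the Control mean as a log2 ratio (vertical axis) against the GC content of transcripts in percent (horizontal axis), with orange points for the 8 tested members and a grey line for the medians of 10 equal groups of genes. The grey line climbs steeply in replicate 1, less in replicate 3 and stays flat in replicate 2, and in all 3 libraries LIF, OSMR, IL6ST and LIFR lie above it and IL6R and IL11 below it.

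With a correction for GC content in the same edgeR test, 4 of the 8 members were called, LIF, OSMR and IL6ST higher and IL6R lower, and 6 had groups that did not overlap, 4 higher and 2 lower. Over all genes the corrected test called 7.40%, 4.11% higher and 3.29% lower, and 33.9% did not overlap. The log2 fold change of LIF was then 0.73 (adjusted p = 0.0043) and that of IL6R −1.16 (adjusted p = 0.0028, edgeR). Corrected expression of IL6ST was 41.6, 36.7 and 44.8 CPM in Control and 55.6, 76.2 and 69.5 CPM after RC48, so that the groups no longer overlapped. Its log2 fold change was 0.71 (adjusted p = 0.0155, edgeR). OSMR was 24.2, 24.95 and 26.3 CPM in Control and 41.6, 34.0 and 36.6 CPM after RC48 (log2 fold change 0.57, adjusted p = 0.0141, edgeR). LIFR and IL11 separated in opposite directions without being called, with log2 fold changes of 0.53 (adjusted p = 0.106) and −0.41 (0.147). CLCF1 turned to −0.09 (adjusted p = 0.723) and IL11RA came to 0.02 (0.953). The part of GC content in the uncorrected differences was not tested further.

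**Figure D3:**
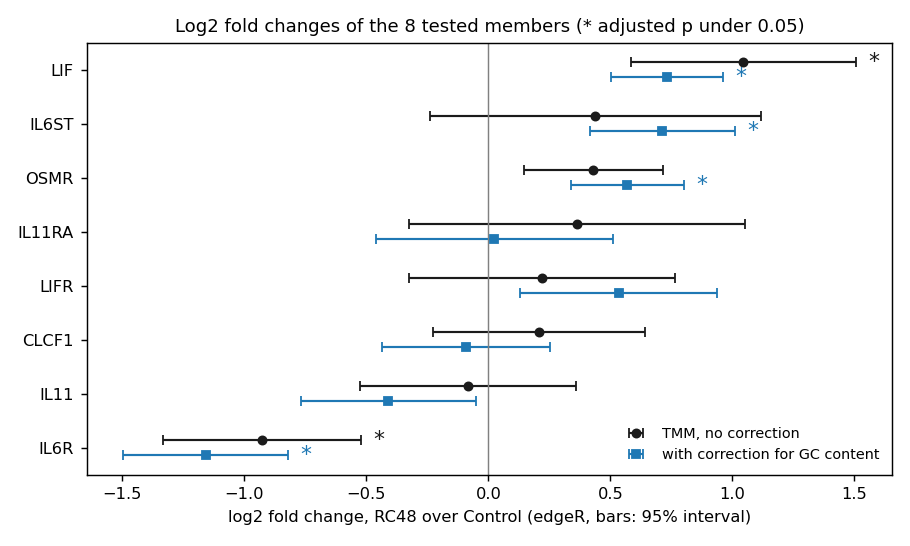
Log2 fold change of RC48 over Control for the 8 tested members (horizontal axis) with 95% intervals, without a correction (black circles) and with the correction for GC content (blue squares), where an asterisk marks an adjusted p under 0.05. LIF and IL6R carry an asterisk in both versions and OSMR and IL6ST only with the correction, and the points of IL11, CLCF1 and IL11RA move left with it.

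Levels were compared between genes as TPM, a scale that divides by transcript length. In Control, OSMR was the highest member at 11.5 ± 0.646 TPM, followed by IL6ST at 9.45 ± 1.502, CLCF1 at 9.09 ± 1.37 and LIF at 7.42 ± 0.799 TPM (SD, n = 3 each). Neighbours among these overlapped in range. IL11 at 3.49 ± 0.286 and IL11RA at 3.21 ± 0.436 TPM came next and overlapped each other. IL6R at 2.18 ± 0.166, LIFR at 0.523 ± 0.112 and IL6 at 0.060 ± 0.104 TPM followed, each apart from the one before. LIFR, the chain for LIF and CLCF1, was far under its partner gp130. Of all listed genes, 49.2% lay at or under the Control level of OSMR, 42.4% at or under that of LIF and 22.1% at or under that of LIFR.

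After RC48, LIF was first in the order at 14.4 ± 2.69 TPM, and it overlapped in range with OSMR at 14.1 ± 1.54 TPM (SD, n = 3 each). IL6ST at 12.4 ± 5.79 and CLCF1 at 9.77 ± 0.414 TPM followed, again with overlapping neighbours. IL11RA at 3.81 ± 1.16 and IL11 at 3.08 ± 0.236 TPM came after a gap, then IL6R at 1.11 ± 0.158 TPM after another. LIFR at 0.589 ± 0.160 and IL6 at 0.414 ± 0.234 TPM were last and overlapped. The TPM of RC48 replicate 2 were derived here from counts, and without that library 7 of the 9 members kept their place. Derived in the same way, the TPM of RC48 replicate 1 differed from its deposited values by a median absolute log2 difference of 0.184. In the other libraries with TPM this difference was 0.0094 to 0.037.

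**Figure D4:**
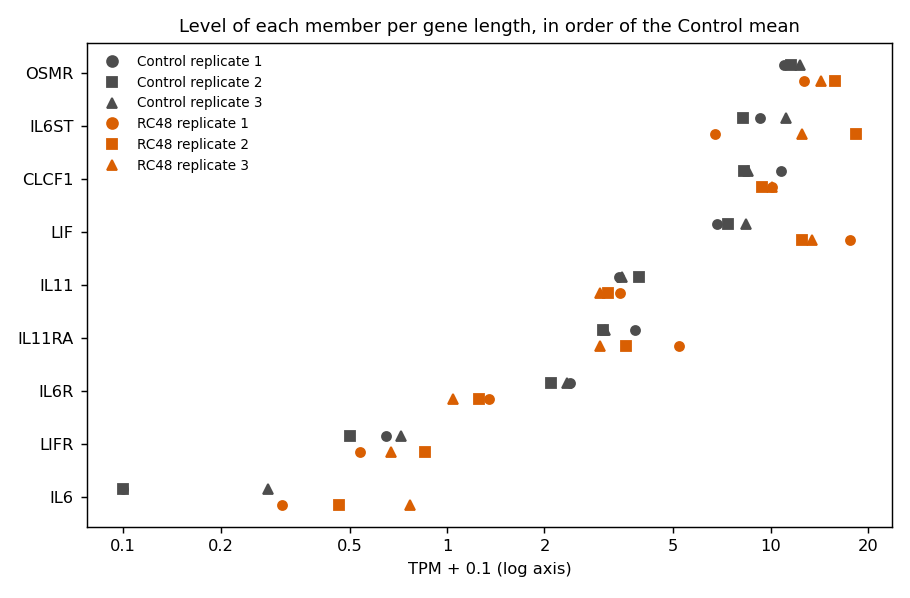
TPM of each member in each of the 6 libraries, plotted as TPM + 0.1 on a log axis and ordered by the Control mean. OSMR, IL6ST, CLCF1 and LIF form the upper group, LIF lies lowest of these in Control and first after RC48, and LIFR and IL6 lie lowest in both groups.

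Ratios within a library set ligands and chains against each other. LIF and CLCF1, ligands of similar GC content that both act through LIFR, had a LIF to CLCF1 ratio of 0.628, 0.891 and 0.982 in Control and of 1.75, 1.34 and 1.34 after RC48, in TPM. CLCF1 was the higher ligand throughout Control and LIF throughout RC48 (p = 0.1 in the exact permutation test, two-sided, the smallest possible). The ratio of IL6R to IL6ST was 0.250, 0.246 and 0.203 in Control and 0.189, 0.0633 and 0.0761 after RC48, lower in each RC48 library than in any Control library (exact permutation test, p = 0.1), for transcripts that differ in GC content. The ratio of LIFR to IL6ST, which have nearly the same GC content, was 0.0598, 0.0494 and 0.0560 in Control and 0.0665, 0.0416 and 0.0462 after RC48. These overlapped (exact permutation test, p = 0.7), as did the ratios of OSMR to IL6ST (p = 1.0) and of OSMR to LIFR (p = 0.6). Of the 5 ratios formed, 2 separated the groups, and no p can fall under 0.1 at this size, so none was adjusted. Summed over the 4 ligands, expression was 19.3 to 20.7 TPM in Control and 25.1 to 31.0 TPM after RC48, and over the 5 receptor chains 24.9 to 29.1 and 26.0 to 39.2 TPM.

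The rest of the family was sparse. Of 7 other ligands and partners, 5 were listed and 3 tested, and none was called, CNTF and CTF1 among them. IL27 and IL31 were not listed. OSM, the ligand of the OSMR and gp130 pair, and EBI3, a subunit of IL-27, are named here after their values were seen. OSM had 0 counts in each Control library and 4, 2 and 1 after RC48. After scaling, its 7 counts after RC48 were 2.32 times a floor of 3 counts set for the Control group. That value makes no allowance for counting error and is not a lower bound. EBI3 had 0, 0 and 1 counts in Control and 11, 17 and 6 after RC48, a ratio of 33.7 with an exact 95% interval from 5.66 to 1371.3. Neither exceeded 17 counts in any library. Of 5 other receptor chains, 2 were tested and IL27RA, which pairs with gp130 for IL-27, was called higher. IL27RA was 6.996, 7.88 and 6.59 CPM in Control and 14.3, 12.1 and 13.4 CPM after RC48, or 0.89 on the log2 scale (standard error 0.15, adjusted p = 0.0298, edgeR). It was not called when any 1 Control library or RC48 replicate 3 was left out (adjusted p up to 0.211 in edgeR).

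Beyond the receptors, 71 genes of the pathway were considered, 65 were listed and 58 tested. Of these, 5 were called higher and none lower against 1.98% and 0.23% of all genes, and their median log2 fold change was 0.17 against 0.02. With the GC correction, 8 were called higher and 2 lower, against 4.11% and 3.29% of all genes. Among the kinases and STAT factors, 1 of 7 was called, STAT3 itself, at 153.1, 145.5 and 174.6 CPM in Control and 242.1, 250.1 and 231.5 CPM after RC48 (log2 fold change 0.61, adjusted p = 0.0440, edgeR). STAT3 was called in 7 of 18 alternatives. JAK1, the kinase most used by gp130, had a log2 fold change of 0.21 (adjusted p = 0.333) and was not called. Of the feedback inhibitors, 1 of 8 was called, SOCS3, which binds gp130 and blocks the kinases. SOCS3 was 11.4, 11.4 and 13.9 CPM in Control and 24.8, 21.4 and 22.1 CPM after RC48 (log2 fold change 0.89, adjusted p = 0.0255, edgeR). It has 68.1% GC, and with the GC correction it came to 0.60 (adjusted p = 0.0527).

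Of 21 tested STAT3 target genes, a list that also holds OSMR, IL6ST and STAT3, 3 were called higher (SOCS3, STAT3 and BCL3), none lower, and the median log2 fold change was 0.26. With the GC correction, 4 were called higher and 2 lower. The higher ones were BCL3, STAT3 and the members OSMR and IL6ST, and SOCS3 was no longer called. The lower ones were MYC at −0.79 (adjusted p = 0.0054, edgeR) and FOS at −0.49 (0.0284). These growth and early response transcription factors had −0.52 (0.0655) and −0.19 (0.326) without the correction and are named after their values were seen. BCL3, a nuclear partner of NF-κB, was 21.9, 22.9 and 21.6 CPM in Control and 94.4, 43.2 and 53.5 CPM after RC48 (log2 fold change 1.53, adjusted p = 0.0373, edgeR). The 7 tested adaptors and signal proteins had no called gene and a median of −0.14. None of the 5 shedding and trafficking genes was called either, with ADAM17, the protease that releases IL6R from the surface, at −0.10 (adjusted p = 0.660, edgeR), turning to 0.16 with the GC correction. Of the 10 regulators of IL6 mRNA, ZC3H12A was called. Its product is the nuclease regnase-1, which degrades IL6 mRNA. ZC3H12A was 45.5, 49.4 and 48.2 CPM in Control and 239.0, 190.8 and 222.9 CPM after RC48, or 2.19 on the log2 scale (standard error 0.13, adjusted p = 3.4e-04, edgeR), and was called in all 18 alternatives. STAT3, SOCS3 and BCL3 were not called when any 1 Control library or RC48 replicate 3 was left out (adjusted p up to 0.309, 0.202 and 0.240 in edgeR), so that 1 of the 58 pathway genes was called in each of those 4 fits.

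**Figure D5:**
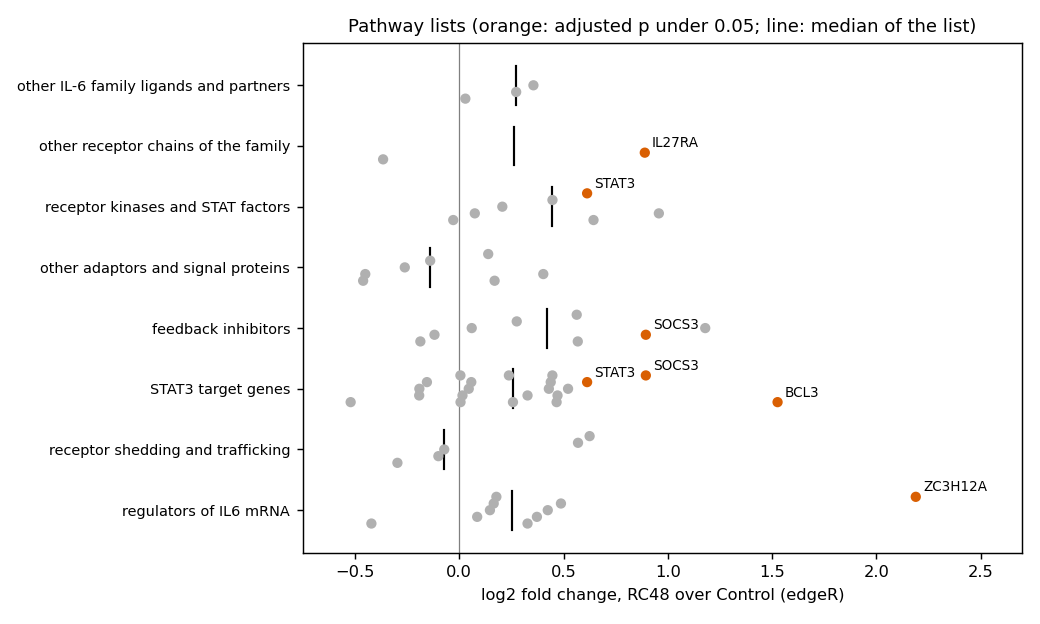
Log2 fold change of RC48 over Control (horizontal axis) for each tested gene of 8 pathway lists (rows), with a black line at the list's median and orange points for genes with an adjusted p under 0.05. ZC3H12A lies farthest to the right, BCL3, SOCS3, IL27RA and STAT3 follow among the called genes, and no called gene lies left of 0.

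By pattern over the 6 libraries, the genes most like each member were named from Pearson's r of log2 CPM, as a description over libraries that share their depth and GC trends. LIF was closest to SLC52A3, WNT10A and GDF11, each with r rounding to 0.997 or 0.998. OSMR was closest to CYTH1 (0.995), LAMA3 (0.993) and HSPB8, and IL6ST to REPS2 (0.988), GBP4 and ITSN2. IL6R was closest to LRRC37A2 (0.985), MYC (0.977) and UPK1B (0.976). The patterns of IL11 (LSM8 and CBWD2), CLCF1 (FIZ1, PRKAG1, ALKBH4), LIFR (TMCO3, ATXN1, GNPTAB) and IL11RA (ZNF747, AP2S1, GNB1) had fewer close neighbours, with 2, 3, 1 and 19 genes at an r of at least 0.95 for IL11, CLCF1, LIFR and IL11RA against 468 for LIF.

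Cell type markers were read beside these results. Of 13 urothelial and epithelial markers, 12 were tested and 1 was called, KRT20, lower after RC48 (log2 fold change −1.55, adjusted p = 0.0489, edgeR). Of all genes tested, 0.23% were called lower. KRT20 had 102 counts in Control and 35 after RC48, and it passed the count filter only through the Control libraries. The filter thus favoured a lower value after RC48. The summed level of the list was 17273 to 18216 TPM in Control and 19026 to 20939 TPM after RC48. Of 12 leukocyte markers, 8 were listed and 1 of 5 tested was called, ITGAM, at 5 counts in Control and 188 after RC48. Over all genes, 1.98% were called higher. Their sum was 22.2 to 25.4 TPM in Control and 26.5 to 43.9 TPM after RC48. All 5 tested had a log2 fold change above 0, with a median of 1.42. However, ITGAM, CD3E and CD14 passed the count filter only through the RC48 libraries, where they were higher. The filter thus favoured this direction, and the shared sign and the median are no test of it. CD3E had 16 and 51 counts and CD14 18 and 49, higher in each RC48 library than in any Control library but not called (adjusted p = 0.113 and 0.161, edgeR). Of all genes tested, 17.4% were higher in each RC48 library in this way. The defining leukocyte gene PTPRC had 0 counts in Control and 2 after RC48, CSF1R 0 and 4, and FCER1G 1 and 2. The part of these markers in the members' differences was not tested. The 9 stromal markers, of which 8 were listed, summed to 228.0 to 256.7 TPM in Control and 183.6 to 257.6 TPM after RC48. The 5 endothelial markers summed to 7.06 to 8.15 and 4.99 to 6.08 TPM. No gene of either list was called in the main test. With the GC correction, 1 of 4 tested stromal markers was called, COL3A1, higher at 0.61 (adjusted p = 0.0054, edgeR). Over all genes, 4.11% were then called higher. LUM was lower at −0.40 (adjusted p = 0.0657, edgeR) and not called.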

How the data were processed

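RNA was sequenced from 3 Control and 3 RC48 libraries of SW780. The authors mapped reads with Bowtie2 and quantified genes with RSEM (versions not given in the sources used here; build hg38 per the submitters' processing notes). The authors deposited estimated counts for 6 libraries, rounded here to whole numbers, and TPM values, for 5 libraries used here; TPM of RC48 replicate 2 were derived by dividing counts by the effective gene lengths that the other files imply. The main test was edgeR 4.0.16 (R 4.3.3, quasi-likelihood, filterByExpr, TMM, Benjamini-Hochberg over 13055 genes, two-sided, threshold 0.05); limma 3.58.1 and DESeq2 1.42.0 served as alternatives. GC correction used a loess offset (span 0.3). Totals ranged from 16453233 to 17988030 counts; exact intervals of summed counts cover counting error only, while the intervals of log2 fold changes include the spread between libraries. No source says that replicates were separate cultures, so p-values measure the spread between these libraries, which may be technical. Gene positions and overlaps came from GENCODE v29 and GC content from the gene models.

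All 9 members were named, with every called pathway gene (up to 6 per list by size), STAT3, JAK1, SOCS3, ADAM17 and ZC3H12A, and the 3 genes most like each tested member (mean of at least 10 CPM); some genes that this rule names are not reported here. The members and lists were chosen with earlier results of these data known. The alternatives were other normalisations, filters, tools, GC correction, a replicate block and leaving out each library.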

Additional observations from a re-analysis of the deposited data

How the results depend on the processing

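Against 288 genes called in the main test, DESeq2 called 744, limma on log2(TPM+1) with 5 libraries 2854, voom with sample weights 8018, the GC correction 966, the replicate block with GC correction 652, and the fits without 1 library between 68 (without Control replicate 3) and 3726 (without RC48 replicate 2). Against 2 members, limma called 1 on log2(TPM+1) with 6 libraries and 0 on log2(TPM+0.1), voom 4, the GC correction 4, the replicate block 1, the replicate block with GC correction 4, and the fits without 1 library between 0 (leaving out any 1 Control library or RC48 replicate 3) and 4 (without RC48 replicate 1). Against 5 pathway genes, DESeq2 called 11 (10 higher, 1 lower), limma on log2(TPM+1) with 5 libraries 15 (11 and 4), voom 40 (31 and 9), the GC correction 10 (8 and 2), the replicate block with GC correction 10 (8 and 2), and the fits without 1 library between 1 and 20 (without RC48 replicate 2). Groups that do not overlap went from 3 members to 6 with the GC correction, an alternative chosen after seeing the data. The cause of these differences was not tested.

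Among the members and pathway genes followed over the alternatives, direction turned only for genes not called in the main test. Without 1 library, IL11 ranged from −0.211 to 0.0139 (without Control replicate 2) and ADAM17 from −0.168 to 0.0382 (without Control replicate 3). CLCF1 was −0.0917 with the GC correction and −0.0856 with the replicate block added, IL6ST −0.0418 and LIFR −0.0161 in limma on log2(TPM+1) with 5 libraries, IL11RA −0.144 with voom, and ADAM17 0.0322 with voom, 0.157 with the GC correction and 0.153 with the replicate block added. LIF and IL6R kept their direction in all 18 alternatives and were called in 12 each. OSMR was called in 5 and IL6ST in 4.

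Deviations from the group mean had correlations of 0.026, −0.161 and −0.015 between same-numbered libraries. Between libraries of different numbers they ranged from −0.136 to 0.169. With 3 libraries per group, these values cannot decide whether the numbers pair the libraries. The replicate block called 331 genes and left IL6R and STAT3 uncalled, at adjusted p-values of 0.0579 and 0.0886 (edgeR). The 12 counts of IL6 leave a wide interval.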
